A study of Mus musculus with 6 samples.

Results

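The vascular endothelial growth factor (VEGF) family was examined in B16F10 melanoma tumors that grew in the mouse footpad or in the flank skin. The members were taken from the family's definition and not from their values, although earlier results of these data were known when they were chosen. They were the ligand genes Vegfa, Vegfb, Vegfc, Vegfd and Pgf, the receptor tyrosine kinase genes Flt1, Kdr and Flt4, and the co-receptor genes Nrp1 and Nrp2, which made 10 of the 45777 genes listed. All 10 passed the filter on low counts and were among the 17210 genes tested.

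B16F10 is a melanoma cell line of the C57BL/6 mouse, and the study compared tumors that the same cells formed in a weight-bearing and in a non-weight-bearing place to ask how mechanical stress relates to gene regulation. The series holds 6 bulk RNA libraries, 1 per tumor, with 3 tumors from each site. The footpad group held grafts in the hind footpad and the flank skin group held grafts in the flank skin. The labels give no other treatment for either group. The labels give Foxn1-/- hosts aged 8 weeks for both groups, so that both shared a host without a thymus and with few T cells, whereas the methods describe syngeneic B16F10 grafts in C57BL/6J mice and do not name the host of the sequenced tumors. The methods describe grafts placed at both sites at the same time, but which footpad and which flank skin tumor shared a mouse is not stated, and p-values measure the spread between these tumors.

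VEGF ligands are secreted and bind receptor kinases on endothelial cells. VEGF-A acts mainly through VEGFR2 (Kdr) to drive the growth and leakiness of blood vessels, placenta growth factor (Pgf) and VEGF-B bind VEGFR1 (Flt1), and VEGF-C and VEGF-D act through VEGFR3 (Flt4), the main receptor of lymphatic vessels. Flt1 binds VEGF-A tightly and signals weakly, and a soluble form of it holds the ligand back. The neuropilins have no kinase of their own, serve as co-receptors for VEGFs and for class 3 semaphorins, and are made by many tumor cells as well as by vessels. Vegfa transcription is induced by low oxygen through hypoxia-inducible factors.

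The sequences before the start sites of Vegfa, the ligand with the highest level per transcript length in flank skin tumors, and of Nrp2, the receptor with the highest such level at both sites, show the motif content that was compared with other genes. They were taken from RefSeq on GRCm38.p6, are read 5′ to 3′ on the gene's strand and run up to the most upstream annotated start. The Vegfa window is chr17:46032378-46032627 on the minus strand. The Nrp2 window is chr1:62703067-62703284 on the plus strand and leaves out 32 bases that overlap an annotated exon. Capitals mark each match to the hypoxia-inducible factor core (ACGTG or GCGTG) or to the GC box (GGGCGG) on either strand, and adjoining capitals can hold 2 matches.
Vegfa: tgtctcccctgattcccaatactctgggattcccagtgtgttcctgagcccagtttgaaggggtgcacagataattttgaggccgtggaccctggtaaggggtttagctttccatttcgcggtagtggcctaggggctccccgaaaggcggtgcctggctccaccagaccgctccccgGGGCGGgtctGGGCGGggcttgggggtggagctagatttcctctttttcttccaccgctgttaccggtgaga
Nrp2: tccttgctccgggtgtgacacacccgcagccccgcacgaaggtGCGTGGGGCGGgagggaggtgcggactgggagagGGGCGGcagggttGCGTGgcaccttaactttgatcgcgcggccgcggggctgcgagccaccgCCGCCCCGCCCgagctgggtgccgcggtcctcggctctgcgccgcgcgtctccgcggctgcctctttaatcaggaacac

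The printed Vegfa window held 2 GC boxes and no hypoxia-inducible factor core, with a GC content of 59.2%. Vegfa has 2 annotated starts, and the window before its other start held a hypoxia-inducible factor core. The Nrp2 window held 4 GC boxes and 2 hypoxia-inducible factor cores, with a GC content of 72.5%. Across the 250 bases before all 32851 annotated starts, 38.6% of windows held a hypoxia-inducible factor core, 32.7% held a GC box and 12.6% held GGAATG, the motif of the TEAD factors with which YAP acts. The members had 12 such windows. Of these 12, 7 held a hypoxia-inducible factor core, 10 held a GC box and 0 held GGAATG. A match describes letters in the window and not binding.

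Between 46529649 and 66364366 reads per tumor were counted on genes, and 3 reads corresponded to between 0.0438 and 0.0673 CPM, the reads of a gene scaled to a common library size. Counts of tumors from 1 site differed far beyond counting noise, with a chi-square of 58.6 or more per gene in every pair, so no library was a repeat of another. Melanocyte genes such as Tyrp1 and Dct, which mark the graft, were abundant in all 6 tumors, with a summed level of 14110 to 24430 CPM in the footpad and 18400 to 30100 CPM in the flank skin. Footpad tumor 2 carried the most keratinocyte RNA (such as Krt10 and Dsp, 598.7 CPM summed, at most 30.3 CPM in any other tumor) and the most skeletal muscle RNA (such as Ttn and Neb, 1300 CPM, at most 238.9 CPM in any other tumor). Neutrophil markers such as S100a9 and S100a8 were high in footpad tumors 1 and 3 (424.7 and 205.7 CPM) and at most 34.8 CPM in the other tumors. Hemoglobin genes held 3.39%, 0.399% and 1.78% of the counted reads in footpad tumors 1, 2 and 3. In flank skin tumors 1, 2 and 3 they held 2.81%, 0.372% and 0.186%. The part of blood cells in the levels of vessel genes was not tested.

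Placenta growth factor was the member that passed the test between the sites. Pgf RNA rose 4.59-fold in footpad tumors, and no other ligand or receptor passed. The test required an adjusted p under 0.05 (edgeR quasi-likelihood test, Benjamini-Hochberg over all genes tested) and a fold change of 2 or more. Thus 1 of 10 members was called higher in the footpad and 0 were called lower, where 2.89% and 0.872% of all genes tested were called in these directions and 3.76% in either. At an unadjusted p under 0.05, 2 members (Pgf and Nrp2) were higher and 0 were lower, where 25.3% of all genes tested passed in either direction. DESeq2 also called 1 member higher and 0 lower. Vegfa, the ligand best known for tumor vessels, was on average lower in the footpad, with overlap between the sites. The median log2 fold change of the members was 0.44, and that of all genes tested was -0.0042. In 4 of 10 members (Vegfd, Pgf, Kdr and Nrp2) every footpad tumor lay above every flank skin tumor, which held for 17.5% of all genes tested. In 0 of 10 every footpad tumor lay below, which held for 14.9% of all genes tested (32.5% for both directions together).

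**Figure D1:**
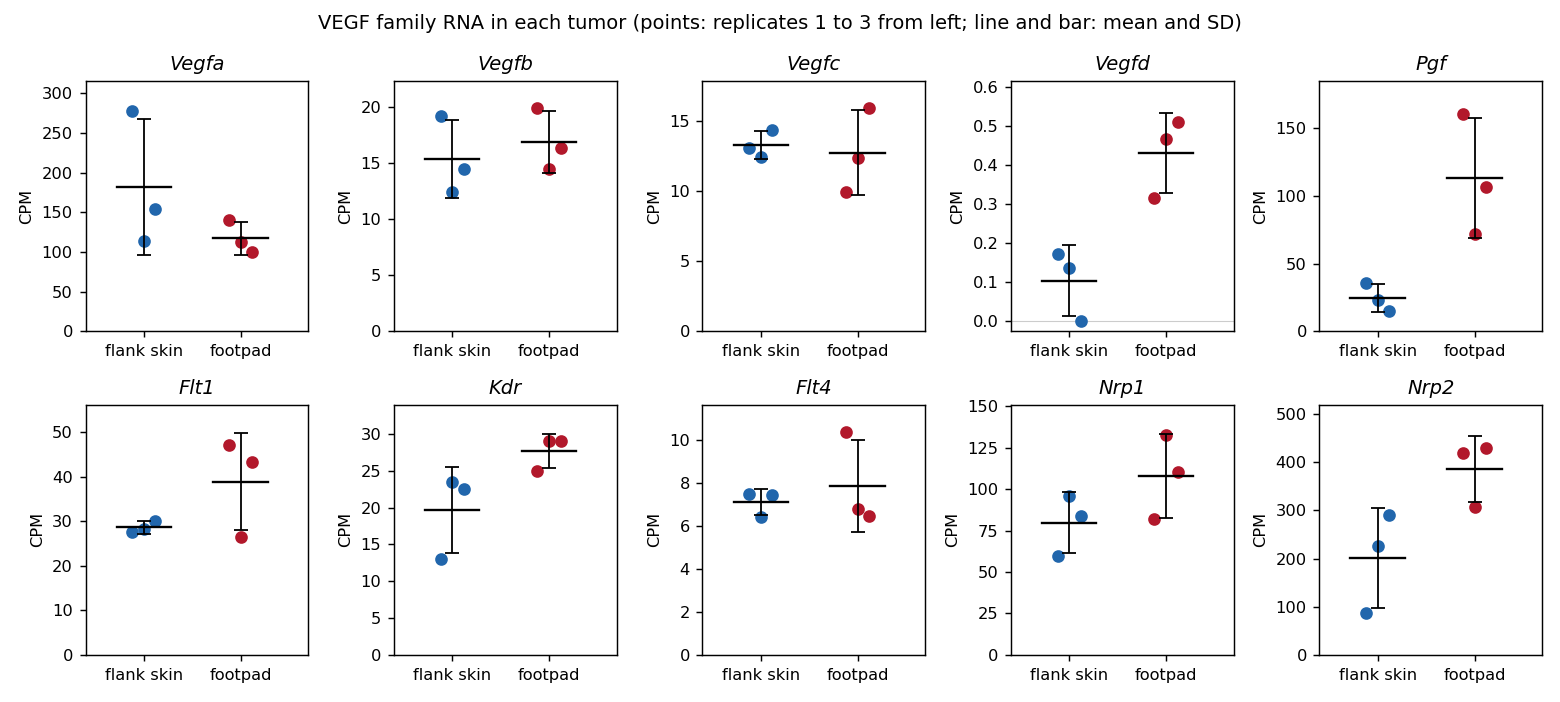
Level of each VEGF family member in each tumor. The vertical axis of each panel is CPM after TMM scaling and starts at 0 or just below, points are the 3 tumors of a site in the order of their replicate numbers, and the line with its bar is the mean and SD. The 3 footpad tumors sit above the 3 flank skin tumors for Vegfd, Pgf, Kdr and Nrp2, and the sites overlap for the other 6 members.

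Pgf lies on chromosome 12 (GRCm38, 85166637 to 85177785, minus strand) and encodes a ligand of Flt1. Its level was 161, 72.3 and 107 CPM in footpad tumors 1, 2 and 3 and 35.6, 23.1 and 15.3 CPM in flank skin tumors 1, 2 and 3. The lowest footpad tumor therefore exceeded the highest flank skin tumor, and footpad tumor 1 was the highest of all. The log2 fold change was 2.20 ± 0.38 (SE, n = 3 per site), with an adjusted p of 0.0271 by edgeR. DESeq2 gave an adjusted p of 8.38e-08. The call was retained without footpad tumor 2 (adjusted p = 0.022) and without flank skin tumor 1 (adjusted p = 0.0372). It was lost in the edgeR fit without footpad tumor 1, footpad tumor 3, flank skin tumor 2 or flank skin tumor 3, where the adjusted p was 0.0919, 0.109, 0.0664 and 0.093 and the log2 fold change was 1.86, 2.24, 2.15 and 1.94. With the replicate number as a block the adjusted p was 0.0563.

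Vegfa lies on chromosome 17 (46016993 to 46032377, minus strand). Its level was 140, 112 and 99.6 CPM in the footpad tumors and 278, 113 and 154 CPM in the flank skin tumors. Flank skin tumor 1 stood well above the rest, and footpad tumor 1 lay between flank skin tumors 2 and 3. The log2 fold change was -0.63 ± 0.32 (SE, adjusted p = 0.262), and without flank skin tumor 1 it was -0.19 (adjusted p = 0.592). Most of the average difference in Vegfa was thus carried by 1 tumor.

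Vegfb and Vegfc had nearly the same level at both sites. Vegfb (chromosome 19, 6982472 to 6987651, minus strand), a ligand of Flt1, measured 19.8, 14.5 and 16.3 CPM in the footpad and 19.2, 12.4 and 14.4 CPM in the flank skin, with a log2 fold change of 0.14 ± 0.22 (adjusted p = 0.726). Vegfc (chromosome 8, 54077532 to 54186454, plus strand), a lymphangiogenic ligand of Flt4, measured 9.95, 12.4 and 15.9 CPM and 13.1, 12.4 and 14.4 CPM, with a log2 fold change of -0.06 ± 0.21 (adjusted p = 0.888). For both genes the 2 sites overlapped, and the sign of the fold change turned when 1 tumor was left out (to -0.001 for Vegfb without flank skin tumor 2 and to 0.0901 for Vegfc without footpad tumor 1).

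Vegfd, the other lymphangiogenic ligand, lies on chromosome X (164373522 to 164402650, plus strand) and was close to the detection limit. It had 14, 32 and 25 reads in the footpad tumors and 10, 8 and 0 reads in the flank skin tumors, or 0.314, 0.467 and 0.51 CPM against 0.172, 0.137 and 0 CPM. Every footpad tumor was above every flank skin tumor, and flank skin tumor 3 had no read. The log2 fold change of 2.05 had a standard error of 0.95 and did not pass the test (adjusted p = 0.222). At these counts a difference of this size was not resolved.

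**Figure D2:**
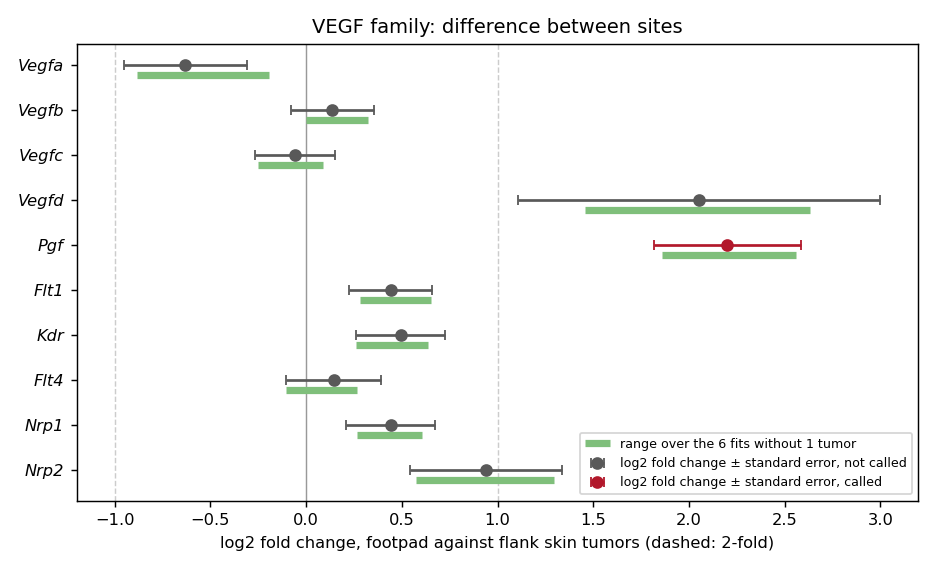
Difference between the sites for each VEGF family member. The horizontal axis is the log2 fold change of footpad against flank skin tumors, points with bars are the value and its standard error, and green bars are the range over the 6 fits that each leave out 1 tumor. Pgf, in red, was called, and the range of Vegfb, Vegfc and Flt4 includes 0.

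In these tumors the ligand mixture differed between the sites when levels were set per transcript length as FPKM. This deposited unit divides reads by transcript length and sequencing depth. Pgf made up 59.1%, 43.9% and 53.5% of the summed ligand FPKM in the footpad tumors, and 17.4%, 21.6% and 12.8% in the flank skin tumors. Vegfa made up 26.8%, 35.8% and 26.5% in the footpad and 64.6%, 52.0% and 61.0% in the flank skin. Pgf was thus the leading ligand transcript in all 3 footpad tumors and Vegfa in all 3 flank skin tumors. Shares of a sum are tied to one another, so the lower Vegfa share does not by itself show less Vegfa RNA. The ratio of Pgf to Vegfa FPKM was 2.20, 1.23 and 2.02 in the footpad and 0.27, 0.416 and 0.211 in the flank skin. The mean log2 ratio was 2.62 higher in the footpad, and a two-sided exact permutation test gave p = 0.1, the smallest that 3 against 3 tumors allow. This ratio was computed after the values were seen, and it was between 2.39 and 2.88 higher with each tumor left out. Summed over the 5 ligands, the level was 126, 86.2 and 100.4 FPKM in the footpad and 103, 61.8 and 65.7 FPKM in the flank skin, and the sites overlapped.

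**Figure D3:**
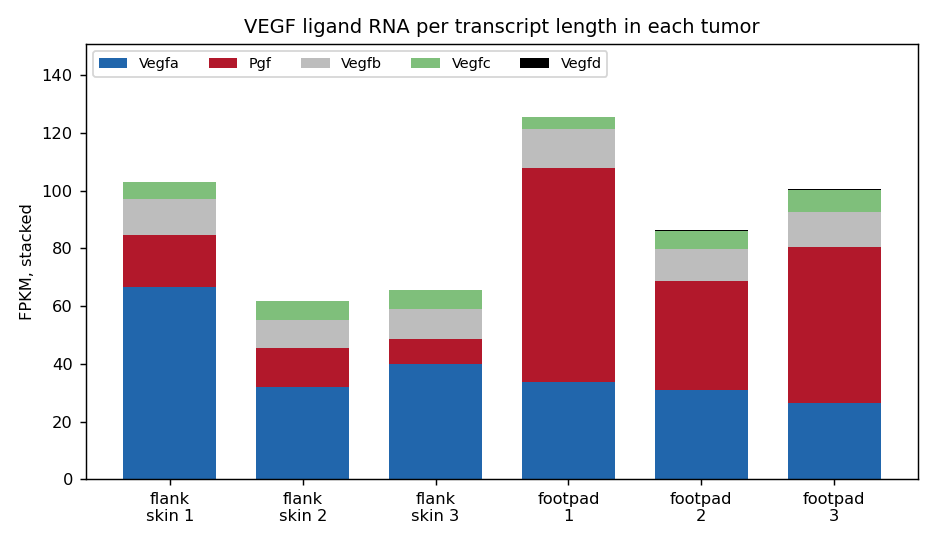
Ligand RNA per transcript length in each tumor. The vertical axis is FPKM stacked over the 5 ligand genes, and each bar is 1 tumor. Pgf, in red, is the largest segment in the 3 footpad tumors (43.9% to 59.1% of the bar), and Vegfa, in blue, is the largest in the 3 flank skin tumors (52.0% to 64.6%).

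Among the receptor kinases, none passed the test. Kdr (chromosome 5, 75932827 to 75979072, minus strand), the main signalling receptor for VEGF-A, measured 25.0, 29.0 and 29.1 CPM in the footpad and 13.0, 23.5 and 22.5 CPM in the flank skin. The footpad tumors all lay above the flank skin tumors, and flank skin tumor 1 was the lowest. The log2 fold change was 0.49 ± 0.23 (adjusted p = 0.234). Flt1 (chromosome 5, 147561604 to 147726438, minus strand), the receptor shared by Pgf, VEGF-A and VEGF-B, measured 47.0, 26.4 and 43.2 CPM and 27.5, 28.2 and 30.1 CPM. Footpad tumors 1 and 3 were above the flank skin tumors and footpad tumor 2 was below all of them. The log2 fold change was 0.44 ± 0.22 (adjusted p = 0.247), and without footpad tumor 2 it was 0.65 with an adjusted p of 0.0489, under the 2-fold limit. Flt4 (chromosome 11, 49609679 to 49652739, plus strand) measured 10.3, 6.75 and 6.45 CPM and 7.47, 6.40 and 7.43 CPM, with overlapping sites and a log2 fold change of 0.14 ± 0.25 (adjusted p = 0.755). In FPKM, the 3 receptor kinases summed to 10.8, 9.50 and 11.4 in the footpad and 6.31, 9.11 and 8.61 in the flank skin, without overlap.

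In FPKM, the neuropilins had higher mean levels than the kinases at both sites. Nrp2 (chromosome 1, 62703317 to 62818692, plus strand), a co-receptor for VEGF-C and for semaphorin 3F, measured 420, 308 and 430 CPM in the footpad and 87.3, 226 and 290 CPM in the flank skin. The sites did not overlap, although footpad tumor 2 and flank skin tumor 3 were close, and flank skin tumor 1 was the lowest. The log2 fold change was 0.94 ± 0.40 (adjusted p = 0.193), and it was between 0.58 and 1.29 with each tumor left out. Nrp1 (chromosome 8, 128358591 to 128505476, plus strand), a co-receptor for VEGF-A and semaphorin 3A, measured 81.9, 132 and 110 CPM and 59.8, 95.8 and 83.5 CPM. These values overlapped, since footpad tumor 1 was below flank skin tumors 2 and 3, and the log2 fold change was 0.44 ± 0.23 (adjusted p = 0.277). Genes annotated across the members' loci reached at most 2.4 CPM in any tumor, for the non-coding gene Gm29083 at Nrp2, and whether counting used strand is not given in the sources used here.

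Per transcript length, Pgf (55.3 ± 18.3 FPKM, SD, n = 3) and Nrp2 (53.7 ± 8.23) had the highest mean levels in the footpad and did not differ beyond their spread. Vegfa (30.4 ± 3.60) came next, below both in all 3 tumors. Nrp1 (16.4) and Vegfb (12.2) overlapped, as did Vegfc (6.08), Flt1 (5.20) and Kdr (4.19) with their neighbours in the order. Flt4 (1.18) and Vegfd (0.202) lay apart at the lower end. In the flank skin Vegfa (46.2 ± 18.0 FPKM) had the highest mean level, followed by Nrp2 (28.2 ± 15.1), Pgf (13.2 ± 4.75), Nrp1 (12.1) and Vegfb (11.0), of which each overlapped with the next. Vegfc (6.29), Flt1 (3.91), Kdr (3.02), Flt4 (1.08) and Vegfd (0.046) followed in the same order as in the footpad, and of these only Flt1 and Kdr overlapped. Pgf thus had rank 1 in the footpad and rank 3 in the flank skin, and the 7 members from Nrp1 downward had the same rank at both sites.

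The methods say that tumor cells were isolated, without naming a way of separating them, and the labels say that tumors were removed. Endothelial and fibroblast markers were detected in every library. In such bulk samples, fewer cells of a type and less RNA per cell cannot be told apart. Endothelial markers were set beside the receptors for comparison, which does not separate these possibilities. All 21 markers were tested, and 6 rose in the footpad (Pecam1, Tie1, Emcn, Robo4, Plvap and Ptprb) with none called lower. Of all genes tested, 2.89% were called higher and 0.872% lower. Pecam1, a junction protein of endothelial cells, measured 67.5, 40.1 and 68.8 CPM in the footpad and 22.9, 25.4 and 23.0 CPM in the flank skin, with a log2 fold change of 1.31 ± 0.22 (adjusted p = 0.0253). The median of the list was 1.17, and its sum was 454 to 570 CPM in the footpad and 275 to 308 CPM in the flank skin. In 18 of its 21 genes every footpad tumor lay above every flank skin tumor, which held for 17.5% of all genes tested. The 6 calls became 10 without footpad tumor 2, 1 without flank skin tumor 1 or 2, and 0 without footpad tumor 1, footpad tumor 3 or flank skin tumor 3. DESeq2 called 13.

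The fold changes of the receptors were smaller than those of most of these markers. Of the 21 endothelial markers, 19 had a larger log2 fold change than each of Flt1, Kdr, Flt4 and Nrp1, and 15 had a larger one than Nrp2. When the mean log2 CPM of the endothelial markers was subtracted in each tumor, Flt1 was 0.64 lower and Flt4 was 0.92 lower in the footpad on the log2 scale, in both cases with all 3 footpad tumors below all 3 flank skin tumors. Kdr differed by -0.50 and Nrp1 by -0.60, with overlap, and Nrp2 differed by 0.06. The two-sided exact permutation p was 0.1 for Flt1 and Flt4, the smallest possible for 3 against 3 tumors, 0.2 for Kdr and Nrp1, and 1 for Nrp2. Adjusted by Benjamini-Hochberg over these 5 comparisons, the exact p was 0.25 for the first 4 and 1 for Nrp2, so that none passed 0.05. The Nrp2 difference was -0.46 without flank skin tumor 1. Receptor RNA from other cells, such as tumor cells, was not separated, so these differences are not levels per endothelial cell.

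**Figure D4:**
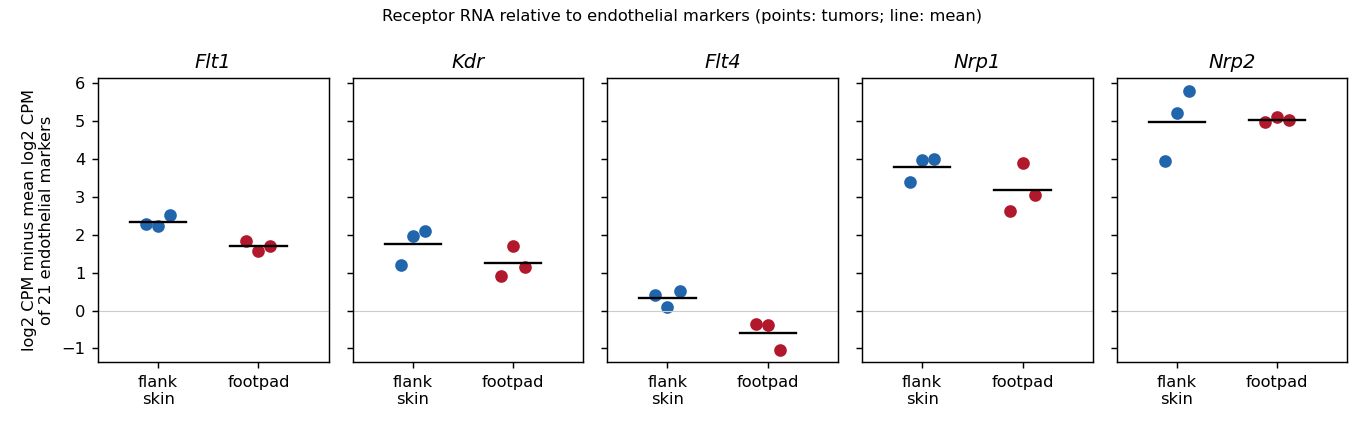
Receptor RNA relative to endothelial markers. The vertical axis is the log2 CPM of the receptor minus the mean log2 CPM of 21 endothelial markers in the same tumor, points are tumors and lines are means. For Flt1 and Flt4 the footpad tumors lie below the flank skin tumors, while for Kdr, Nrp1 and Nrp2 the sites overlap.

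The other cell type markers moved unequally, where 2.89% of all genes tested were called higher and 0.872% lower. Of 14 fibroblast markers, 8 rose, including Col6a3, Col1a1, Col1a2, Col3a1, Thy1 and Lum, and their median log2 fold change was 3.40. Their sum was 3378 to 4530 CPM in the footpad and 176 to 586 CPM in the flank skin, without overlap between the sites. Col1a1, a chain of type I collagen, measured 686, 542 and 648 CPM in the footpad and 15.0, 74.3 and 19.9 CPM in the flank skin. Of 9 pericyte markers 2 rose (Pdgfrb and Cspg4, median 0.61), and of 12 macrophage markers 1 rose (Cd68, median 0.61). Of 8 lymphatic endothelial markers tested 2 rose (median 1.60), and 7 log2 fold changes were positive and 1 negative. The negative one was Itga9, the most abundant of the list (-0.77, adjusted p = 0.132 by edgeR). The sum of the 9 listed genes was 98.0 to 123 CPM in the footpad and 98.5 to 151 CPM in the flank skin, with overlap. Lyve1, a hyaluronan receptor of lymphatic vessels and of some macrophages, measured 11.2, 7.12 and 9.45 CPM in the footpad and 0.931, 1.18 and 0.735 CPM in the flank skin, a log2 fold change of 3.28 ± 0.31 (adjusted p = 0.00677). Ccl21a, a chemokine of lymphatic vessels, was at 0 reads in all flank skin tumors and at 0.379 to 0.584 CPM in the footpad, at least 28.5-fold higher against a floor of 3 reads over the flank skin group. Prox1, the factor that sets lymphatic identity, differed by 0.42 (adjusted p = 0.342). Of 7 Schwann cell markers tested 1 rose (Pmp22, median -0.05). None of the 12 melanocyte (median -0.29), 10 neutrophil (3.48), 8 keratinocyte (4.12) and 12 skeletal muscle (2.55) markers tested passed the edgeR test, while at an unadjusted p under 0.05 there were 2 lower, 10 higher, 6 higher and 0. Of all genes tested, 25.3% passed that unadjusted limit in either direction. In these lists, in the same order, DESeq2 called 0, 4, 2 and 0 genes. These counts also depended on single tumors. Without footpad tumor 1 or flank skin tumor 3 edgeR called 1 lymphatic gene and 0 fibroblast, pericyte, macrophage or Schwann cell genes, and without footpad tumor 3 it called 0 in every list. The fibroblast count was 4 without flank skin tumor 1 and 12 without flank skin tumor 2, the pericyte count was 1 without flank skin tumor 1, and Cd68 was not called without either of these flank skin tumors. Without footpad tumor 2, 7 neutrophil genes were called higher and 2 melanocyte genes and 1 lymphatic gene lower. The part of these cell types in the values of the VEGF family was not tested.

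Genes that act with or downstream of the family were then counted. Of all genes tested, 2.89% were called higher and 0.872% lower. Of 15 tested genes that cleave, activate or release VEGF ligands, 2 rose and 0 fell, with a median log2 fold change of 1.65. Both were procollagen N-proteinases, Adamts14 and Adamts2. Adamts14 measured 28.6, 22.4 and 20.1 CPM in the footpad and 2.55, 5.58 and 3.20 CPM in the flank skin, a log2 fold change of 2.65 ± 0.32 (adjusted p = 0.0141). A further 2 genes of the list, chosen after their values were seen, belong to the step that converts pro-VEGF-C to its active form. Ccbe1, the cofactor of that cleavage, measured 8.28, 1.88 and 6.10 CPM in the footpad and 0.242, 0.376 and 0 CPM in the flank skin (adjusted p = 0.0518), and the protease gene Adamts3 was at most 0.539 CPM in every tumor (adjusted p = 0.076). Neither passed the test. The count of 2 became 4 without footpad tumor 2 or flank skin tumor 2, and 0 without footpad tumor 1, footpad tumor 3 or flank skin tumor 3.

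In the edgeR fit to all 6 tumors, some genes of lists linked to VEGF signalling in endothelium were called higher and 0 lower. Other cells of a bulk tumor can make the same RNAs, and which cells made them was not tested. Of all genes tested, 2.89% were called higher and 0.872% lower. Of 15 tip cell and Notch genes 3 rose (Unc5b, Apln and Nid2, median 0.87), and 11 log2 fold changes were positive and 4 negative. Among the negative ones were Esm1 (-0.74, adjusted p = 0.358 by edgeR) and Kcne3 (-1.20, adjusted p = 0.12). DESeq2 called 5 genes of this list higher and 1 lower. Apln, the apelin ligand made by sprouting tip cells, measured 103, 37.1 and 62.2 CPM in the footpad and 18.2, 12.8 and 14.8 CPM in the flank skin, a log2 fold change of 2.15 ± 0.36 (adjusted p = 0.0253). Unc5b, a netrin receptor of endothelial cells, had a log2 fold change of 1.82 ± 0.23 (adjusted p = 0.0141). Of 15 genes that VEGF induces in cultured endothelium 2 rose (Egr3 and Plaur, median 1.16). Egr3, an early response transcription factor, had a log2 fold change of 3.57 ± 0.55 (adjusted p = 0.0214), from a level of at most 0.276 CPM in the flank skin tumors. Of the 6 angiopoietin and TIE genes only Tie1, an orphan receptor of endothelial cells that is also in the endothelial list, was called (median 1.81), and the vessel-destabilizing ligand gene Angpt2 differed by -0.04 (adjusted p = 0.946). Without footpad tumor 1 or 3 edgeR called 0 genes of these lists, and without flank skin tumor 3 it called 1 (tip cell and Notch). Without flank skin tumor 1 the counts were 2 tip cell and Notch genes, 0 VEGF-induced genes and 0 angiopoietin and TIE genes. The angiopoietin and TIE count was 2 without flank skin tumor 2, where 1 tip cell and Notch gene was also called lower.

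Intracellular transducers of VEGF receptors were called at close to the share of all genes tested. Of 28 tested, 1 rose and 0 fell, where 2.89% of all genes tested were called higher and 0.872% lower. Their median log2 fold change was -0.07. The gene that rose was Nfatc1, a calcineurin-dependent transcription factor, at 20.6, 21.5 and 14.5 CPM in the footpad and 3.88, 6.64 and 6.34 CPM in the flank skin (log2 fold change 1.75 ± 0.27, adjusted p = 0.0219). Of 13 semaphorin and plexin genes, the other partners of the neuropilins, 1 rose (Plxna2, a plexin co-receptor, 1.58, adjusted p = 0.0294) and the median was 0.18. Of 10 tested inhibitors of vessel growth 1 rose, Thbs2, a matrix protein that binds CD36, at 92.0, 91.6 and 106 CPM in the footpad and 12.5, 28.1 and 6.04 CPM in the flank skin (2.63 ± 0.50, adjusted p = 0.034). Without footpad tumor 1, footpad tumor 3 or flank skin tumor 3, 0 genes of these lists were called. Without footpad tumor 2 the counts were 3 transducers, 2 semaphorin and plexin genes and 2 inhibitors, and without flank skin tumor 1 or 2 Plxna2 was not called.

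**Figure D5:**
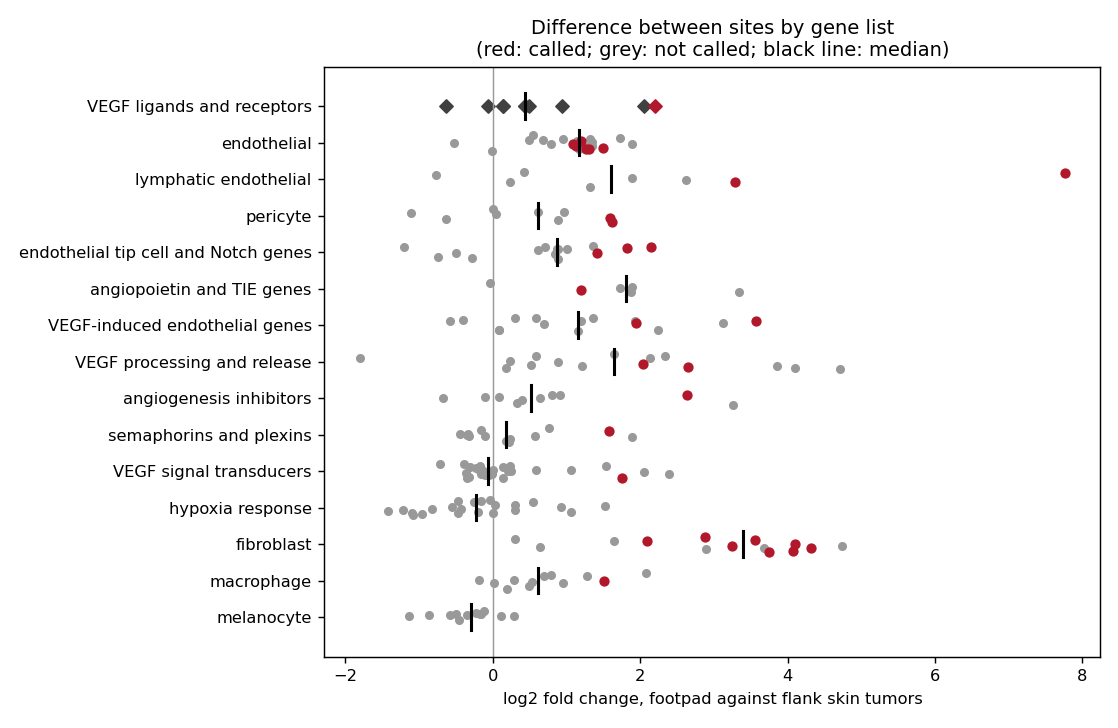
Difference between the sites by gene list. The horizontal axis is the fitted log2 fold change of footpad against flank skin tumors, each point is a gene (red if called, grey otherwise), and black lines are list medians. Of the lists drawn, fibroblast genes have the highest median (3.40), the VEGF family (diamonds, median 0.44) and the endothelial list (1.17) lie to the right of 0, and the hypoxia list is centred below it (-0.22). The point at the far right is Ccl21a, with 0 reads in the flank skin.

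Hypoxia response genes were counted in the same way. Of 22, edgeR called 0 in either direction, where 3.76% of all genes tested were called. At an unadjusted p under 0.05 there were 3 higher and 5 lower, where 25.3% of all genes tested passed in either direction. DESeq2 called 1 higher and 3 lower. With 1 tumor left out, edgeR called 1 higher without footpad tumor 2 and 1 lower without flank skin tumor 1 or 2. Their median log2 fold change was -0.22. Their summed level was 5333, 5361 and 4540 CPM in the footpad tumors and 9561, 5319 and 6315 CPM in the flank skin tumors, so that flank skin tumor 1 was the highest. Flank skin tumor 1 was also the highest for Vegfa, and whether these levels were linked was not tested. Ldha, lactate dehydrogenase A, measured 2002, 2348 and 1784 CPM in the footpad and 3130, 2243 and 2884 CPM in the flank skin (adjusted p = 0.238). Ero1l, the thiol oxidase also called Ero1a, measured 1161, 1062 and 989 CPM and 1818, 926 and 1074 CPM (adjusted p = 0.592). Hif1a, which encodes a hypoxia-inducible factor, was chosen after its values were seen. Its RNA measured 274, 370 and 286 CPM and 657, 506 and 487 CPM, without overlap. The log2 fold change was -0.83 ± 0.19 (adjusted p = 0.0521), and the RNA level does not give the level or activity of the protein.

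Genes with the most similar profiles over the 6 tumors were sought for 4 members among 13594 genes with a mean of at least 1 CPM. The measure was the root-mean-square difference of log2 CPM centred on each gene's mean, for which smaller is more alike. For Vegfa these were Appl2 (0.117), Gys1 (0.124) and Clybl (0.127), each highest in flank skin tumor 1. For Vegfc they were Brf2 (0.065), Mesd (0.0689) and Commd2 (0.0756), each lowest in footpad tumor 1. For Kdr they were Gpr161 (0.0636), Mtor (0.075) and Dhx37 (0.076), each lowest in flank skin tumor 1. For Nrp1 they were Daglb (0.0639), Grik2 (0.0652) and Relt (0.0777), each highest in footpad tumor 2. None of the 3 closest genes of Kdr or Nrp1 was among the 21 endothelial markers. These markers are few beside the 13594 genes compared, so their absence says little about endothelial content.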

How the data were processed

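RNA from 3 footpad and 3 flank skin B16F10 tumors was sequenced after total RNA library preparation with a stranded kit. The methods state that tumor cells were isolated and do not say how. Per the labels and methods, reads were checked with FastQC 0.11.7, trimmed with Trimmomatic and aligned with HISAT2 2.1.0 to mm10. The counting program and its strand setting are not given in the sources used here. The deposited values were whole-number read counts per gene, which the authors did not normalize, and FPKM, in which the authors divided reads by transcript length and depth. Groups came from the labels. The columns of all 6 tumors could be mapped to samples by name.

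Counts were tested with edgeR 4.0.16 in R 4.3.3: TMM scaling, filterByExpr (17210 of 45777 genes kept), glmQLFit and glmQLFTest on site, Benjamini-Hochberg over all genes tested, and a gene called where the adjusted p was below 0.05 and the fold at least 2. The standard error was taken as the log2 fold change over the square root of F. Log2 CPM used a prior count of 1. The common biological coefficient of variation was 0.338 at 46529649 to 66364366 reads per tumor. On simulated counts for 17210 genes with 200 changed, edgeR called 146 of the 200, with 4.58% false calls. Every planted change was well above the 2-fold limit and the counts were drawn independently. The simulation therefore does not give the power for smaller changes such as those of most members. Single values were compared with exact permutation tests (scipy 1.17.1). Coordinates and start sites were from RefSeq on GRCm38, in which 45679 identifiers matched.

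The members, the 18 lists (242 genes, 7 of them in 2 lists) and the tests were chosen with earlier results of these data known. Named were all members, the 3 genes most like Vegfa, Vegfc, Kdr and Nrp1, from each list up to 6 called genes with the smallest p or, with none called, the 2 most abundant, and genes a limit turns on. Named outside this rule, after their values were seen, were Hif1a, Ccbe1, Adamts3, Prox1, Itga9, Angpt2, Esm1 and Kcne3. Alternatives were DESeq2 1.42.0, upper-quartile scaling, no filter beyond 1 read, 10 reads in every tumor, limma 3.58.1 on log2(FPKM + 1) and log2(FPKM + 0.1), no minimum fold, the replicate number as a block, and each tumor left out. The Pgf to Vegfa ratio was added after the data were seen.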

Additional observations from a re-analysis of the deposited data

How the results depend on the processing

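Of 129 alternative values for the members' fold changes, 126 kept their direction. The exceptions, with the range over the fits that leave out 1 tumor, were Vegfb (-0.001 to 0.32, lowest without flank skin tumor 2), Vegfc (-0.25 to 0.0901, highest without footpad tumor 1) and Flt4 (-0.11 to 0.26, lowest without footpad tumor 1). The call of Pgf held with DESeq2, both limma fits, upper-quartile scaling and both other filters. Its log2 fold change was 1.86 to 2.56 with each tumor left out, and between 0 and 1 members were then called higher. Relative to endothelial markers 39 of 40 alternative values kept their direction, the exception being Nrp2 (-0.46 without flank skin tumor 1 to 0.46 without flank skin tumor 3). The ratio of Pgf to Vegfa kept its direction in every alternative.

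Of all genes, 497 were called higher and 150 lower. With each tumor left out these counts were 0 to 639 and 0 to 197, the zeros without footpad tumor 3, where 2061 genes were higher and 1228 lower at an unadjusted p under 0.05 by edgeR. DESeq2 called 1154 and 352, limma on log2(FPKM + 1) called 271 and 95, and dropping the minimum fold gave 248 lower. List counts moved by more than 1.5 times in 90 of 360 alternatives, and without footpad tumor 3 every list had 0 calls.

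Deviations of same-numbered tumors from their site's mean had correlations of 0.0544, -0.0965 and -0.115. The largest of any pair was 0.264, for footpad tumor 2 with flank skin tumor 3. Deviations from a mean of 3 tumors are tied to one another, so these values cannot show whether tumors were paired. The replicate numbers are not taken as pairs, because which tumors shared a mouse is not stated. With the replicate block, edgeR called 0 genes higher and 0 lower (2125 and 1426 at an unadjusted p under 0.05, smallest adjusted p 0.0552), 0 members were called, and the Pgf log2 fold change was 2.21 (adjusted p = 0.0563). Folds under 2 could not be called under the threshold used, and Vegfd lay near the detection limit. The cause of the lost calls was not tested.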
